A study of Homo sapiens with 12 samples.

Results

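The m6A peaks of HSC3 cells made up 7882 of the 14586 peaks in the 4 deposited peak lists. Of these, 3930 were called in control cells and 3952 in cells treated with rapamycin, the inhibitor of the kinase mTOR that the study used to induce autophagy. A rapamycin peak was counted as kept when its exonic blocks shared at least 1 bp with a control peak on the same strand, and otherwise as gained. A control peak was kept or lost by the same rule, so gained and lost describe membership of a list.

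HSC3 and CAL33 are established human OSCC lines. Cells of each line were cultured for 3 days with rapamycin at 100 nM or without it, and fragmented RNA was pulled down with an anti-m6A antibody (MeRIP-seq). Each line and treatment gave 1 immunoprecipitated library and 1 input library, so HSC3 with rapamycin is compared with HSC3 without it on a single pair of libraries per side. There is no replicate error, no test between treatments was possible, and the treatment and the spread between library pairs cannot be told apart. The depth of the MeRIP libraries is unknown. Intervals given below are 95% Wilson intervals and cover counting error only.

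m6A is a methyl group on internal adenosines of mRNA and other RNA. A nuclear complex built around METTL3 and METTL14 writes it, mostly within the short motif known as DRACH and often near stop codons and in long exons, FTO and ALKBH5 can remove it, and YTH-domain proteins and other readers bind it and influence splicing, translation and decay. The mark has been studied in autophagy because transcripts of autophagy genes can carry it.

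Sequence was available for peaks that reach into an annotated gene start, since only promoter windows of RefSeq (GRCh38.p14, the hg38 assembly of the files) were at hand. These windows touched 99 control and 96 rapamycin peaks. For 4 peaks of each class, 28 bases around a GGAC, the core of the preferred m6A motif, are printed 5′ to 3′ on the transcript strand with the GGAC in capitals. They are shown so that the 3 classes can be read side by side. No value here says which adenosine of a peak was modified.

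The kept sites lie in USP6NL (chr10:11463651-11463678, minus strand, CDS), ZBED6 (chr1:203797291-203797318, plus, exon), YWHAH (chr22:31944653-31944680, plus, 5′ UTR) and ARID1A (chr1:26696613-26696640, plus, CDS).
USP6NL: acccccagagcaGGACcgggacgcccga
ZBED6: gaaaattggaagGGACcttaaagccctc
YWHAH: cgaccggggagcGGACtgaccggcggga
ARID1A: aaaggagctgcaGGACggggccgagagc

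The gained sites lie in ZNF146 (chr19:36235704-36235731, plus, 5′ UTR), TMEM198B (chr12:55830713-55830740, plus, exon), ACOT2 (chr14:73569150-73569177, plus, 5′ UTR) and RTN4 (chr2:55049881-55049908, minus, CDS).
ZNF146: tgagaggcaccaGGACttgggaggcatg
TMEM198B: gtctctggtcctGGACtagagcagtagg
ACOT2: ggctgatcggctGGACtctggccttccc
RTN4: caagctccctgaGGACgacgagcctccg

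The lost sites lie in MAFG (chr17:81922723-81922750, minus, exon), PA2G4 (chr12:56104516-56104543, plus, 5′ UTR), PAF1 (chr19:39391143-39391170, minus, 5′ UTR) and PFN1 (chr17:4948493-4948520, minus, 5′ UTR).
MAFG: agaccttcgcccGGACggtggcccgcag
PA2G4: tggcggccgagaGGACtagttgtcccag
PAF1: tggttccgagccGGACttcatttccccg
PFN1: gagccgcggtccGGACggcagcgcgtgc

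GGAC was looked for on the transcript strand in the central 100 bases of the stretch that a peak shared with a window. Peaks sharing less than 100 bases were left out, so 34 of 81 gained and 38 of 80 lost peaks were searched. GGAC was found in 18 of 34 gained peaks (52.9%), 15 of 38 lost peaks (39.5%), 5 of 10 kept rapamycin peaks (50%) and 3 of 7 kept control peaks (42.9%). The central 100 bases of all 35116 windows held GGAC in 30.6%. Those bases lie before the start of the window's own gene, whereas the bases searched in peaks are exonic. The wider DRACH motif is A, G or T, then A or G, then AC, then A, C or T. The printed GGAC of ARID1A, RTN4, MAFG and PFN1 is followed by G and so does not make a DRACH. DRACH was found in 70.6% of the gained and 68.4% of the lost peaks and in 73.8% of all windows. GGAC was thus found in a larger share of each class than of the windows at large, and DRACH in a smaller one, over few peaks (down to 7 in a class) that all lie at gene starts.

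Rapamycin and control lists shared a minority of their peaks. Of the 3952 rapamycin peaks, 1123 (28.4%) were kept and 2829 (71.6%) were gained, and of the 3930 control peaks, 1110 (28.2%, 26.9% to 29.7%) were kept and 2820 (71.8%) were lost. Most overlaps were long. Of 1219 overlapping pairs, 998 (81.9%) shared at least 50% of the shorter peak, 568 (46.6%) had the shorter peak inside the longer, and 57 (4.68%) shared less than 10 bp. Just outside the rule, 57 gained peaks (2.01%) and 58 lost peaks (2.06%) lay within 50 bp of a peak of the other list. Taking each peak with its best partner gave 1055 pairs, whose centres were a median of 60.0 bp apart and of which 999 (94.7%) had the same region label in both lists. In 197 control and 215 rapamycin cases a peak overlapped a peak of its own list on the opposite strand, and in 142 and 152 of these both p-value and fold matched within 5%.

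Kept peaks had smaller p-values than gained and lost peaks and a similar fold enrichment. The median log10 p-value was −26.3 for kept and −14.2 for gained peaks of the rapamycin list, and −31.8 for kept and −14.8 for lost peaks of the control list. The median fold enrichment (immunoprecipitated RNA over input) was 33.3 for kept and 32.8 for gained peaks, and 33.6 for both kept and lost peaks of the control list. Kept peaks were a median of 240 bp long, against 210 bp for gained and 206 bp for lost peaks. False discovery rates above 0.05 stood on 4.81% of the kept and 10.7% of the gained peaks, and on 7.48% of the kept control and 16.9% of the lost peaks.

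When each list was cut into 10 groups by p-value, the kept share of the rapamycin list was 18.5% (15.0% to 22.5%) in the weakest group, 23.4% in group 6 and 67.3% (62.6% to 71.8%) in the strongest. The control list gave 15.2% (12% to 19.1%), 22.9% and 68.4% (63.7% to 72.8%). Most of the increase therefore fell in the last 3 groups. Cut by fold enrichment, the groups of the rapamycin list kept between 23.5% and 33.1% of their peaks, apart from the highest with 42.6% (37.8% to 47.5%), and the highest group of the control list kept 36.4%. Within a list, fold enrichment and the size of the log10 p-value were related across peaks (Spearman 0.58 in control and 0.60 in rapamycin, over 3930 and 3952 peaks of 1 library pair each).

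**Figure D1:**
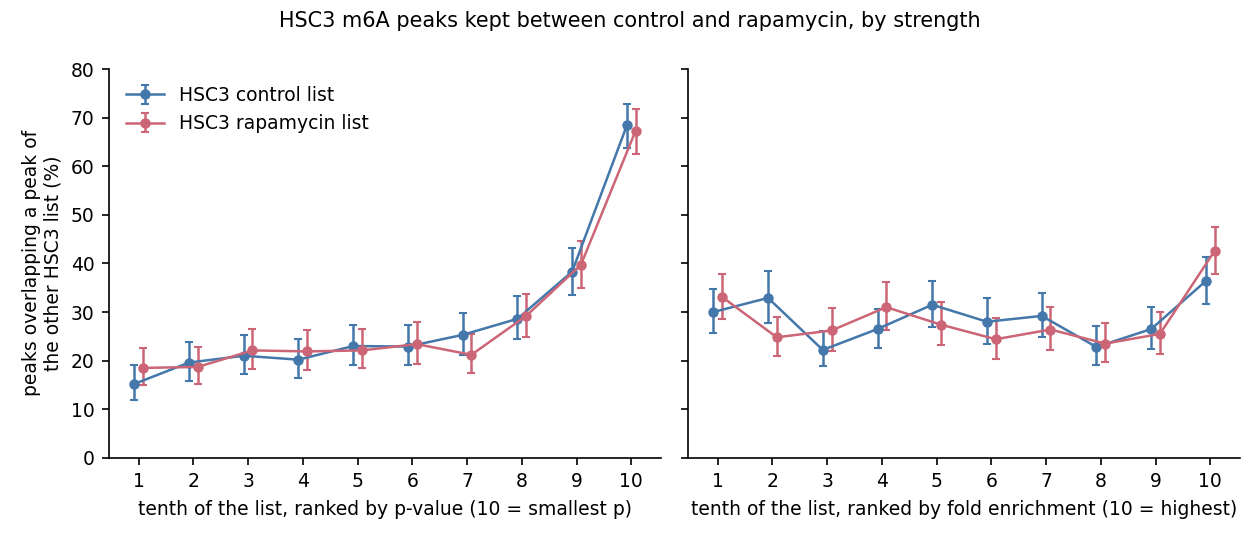
Share of HSC3 peaks kept (y axis, percent) in 10 groups of each list from weakest to strongest (x axis), ranked by p-value and by fold enrichment, with bars for 95% Wilson intervals. By p-value the kept share climbs to 67.3% in the rapamycin and 68.4% in the control list, while by fold enrichment it stays between 22.2% and 33.1% in every group but the highest of each list.

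Many peaks shared their values with other peaks. In the control list 2337 peaks (59.5%), and in the rapamycin list 2448 (61.9%), had both a fold enrichment and a p-value equal to those of another peak of the same list. The commonest value of the control list, a fold of 11.2 with a log10 p-value of −1.54, stood on 269 peaks, and that of the rapamycin list, 10.9 with −1.97, on 116. Common fold values were spaced by about 5.6 in the control and 2.7 in the rapamycin list. Peaks with repeated values had a higher median fold (44.9 in control, 38.3 in rapamycin) and a weaker median log10 p-value (−11.8 and −11.7) than the other peaks (fold 24.0 and 24.6, log10 p-value −36.8 and −35.8). They were kept in 18.4% (16.8% to 20%) of control and 19.7% (18.2% to 21.3%) of rapamycin cases, against 42.7% (40.3% to 45.2%) and 42.6% (40.1% to 45.1%) for the others. Several shares, counts and correlations are given below with and without repeated values. Folds of single genes in the gene lists are not, and some are repeated values without being marked as such. Examples are RRAGA with rapamycin (172) and NOTCH1 in control cells (191).

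The kept share also varied with the part of the transcript. Of rapamycin peaks in the CDS 31.6% (29.4% to 33.9%) were kept, in the 3′ UTR 26.6% (24.3% to 28.9%), in other exons 26.8% (23.8% to 30.0%) and in the 5′ UTR 16.8% (11.3% to 24.3%). The control list gave 30.3%, 27.1%, 27.7% and 18.0% in the same order. The 5′ UTR was the lowest in both lists, on 125 rapamycin and 139 control peaks.

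Kept peaks were found in CAL33 more often than gained or lost ones. A CAL33 peak of either treatment overlapped 62.7% (59.8% to 65.5%) of the kept rapamycin peaks and 62.3% of the kept control peaks, but 27.4% (25.8% to 29.1%) of the gained and 25.6% (24.0% to 27.2%) of the lost peaks. HSC3 peaks gained with rapamycin were not found more often in the CAL33 rapamycin list. They overlapped a peak of CAL33 control cells in 18.3% (16.9% to 19.7%) of cases and a peak of CAL33 rapamycin cells in 14.7% (13.5% to 16.1%). For lost peaks the shares were 17.3% and 13.7%. The CAL33 control list held 3625 peaks and the CAL33 rapamycin list 3079, and the part of list length in these shares was not tested.

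Among peaks in the stronger 50% of their list by p-value, a CAL33 counterpart was found for 69.0% of kept rapamycin peaks and 68.9% of kept control peaks, 30.6% of gained and 30.3% of lost peaks. In the weaker 50% the shares were 51.6%, 50.1%, 24.9% and 21.8%. The gap between kept and other peaks was therefore present in both 50% groups. Within a group the kept and other peaks were not matched for strength, so a gap at equal strength was not tested. Of the 100 gained peaks with the smallest p-values, 59 had a CAL33 counterpart, 22 in both CAL33 lists, 21 in CAL33 control only and 16 in CAL33 rapamycin only. Of the 100 strongest lost peaks, 58 had one, 19 in both lists, 27 in CAL33 control only and 12 in CAL33 rapamycin only. The strongest 100 kept peaks had one in 92 cases in the rapamycin and 89 cases in the control list. These sets also differed in strength. The weakest log10 p-value among the 100 was −333 for kept and −115 for gained peaks, and −322 for kept control and −117 for lost peaks.

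**Figure D2:**
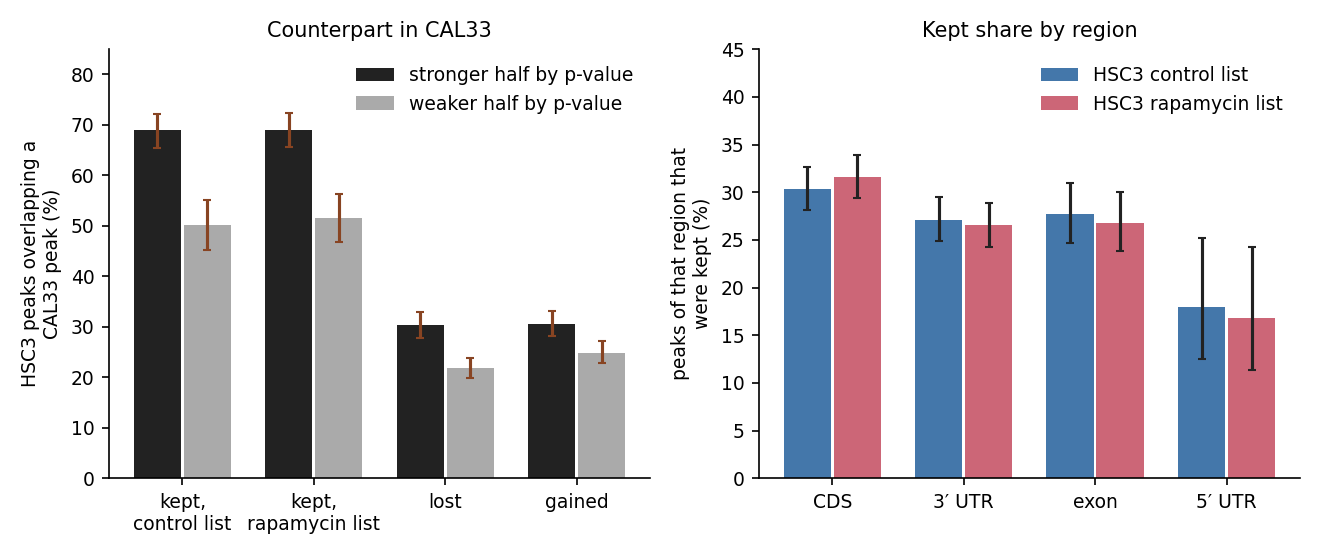
Left, share of kept, gained and lost HSC3 peaks that overlap a CAL33 peak (y axis, percent), for the stronger and weaker 50% of peaks by p-value. Right, share of HSC3 peaks kept by transcript region in each list (percent), with 95% Wilson intervals as bars in both panels; kept peaks reach 69.0% on the left, and the 5′ UTR is lowest on the right, at 16.8% and 18.0%.

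The 6 kept pairs with the smallest p-values lay on a nuclear RNA, a mitochondrial RNA and 4 coding transcripts. MALAT1, a long non-coding RNA of nuclear speckles, carried a peak at chr11:65499951-65500880 (control) with a fold of 60.8 in control and 25.7 in rapamycin cells, and 24.7 and 24.3 in CAL33. EGFR, the epidermal growth factor receptor, carried a 3′ UTR peak at chr7:55205967-55206566 with 52.5 and 61.5, and 89.8 and 132 in CAL33. ARHGAP5, a GTPase-activating protein, carried a CDS peak with 22.1 and 13.3, and 34.0 and 22.9 in CAL33. Their percentiles within the HSC3 lists differed by −20.8, 7.62 and −13.9 points, rapamycin minus control.

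The folds of the other 3 were further apart. The 3′ UTR peak of IER3, an immediate early gene that acts on cell survival, had a fold of 37.0 in control and 104 in rapamycin cells, and 94.0 and 19.8 in CAL33. ANKRD40, an ankyrin repeat protein, had 230 and 18.2 in its 3′ UTR, and 27.8 and 36.2 in CAL33. The mitochondrial 16S ribosomal RNA MT-RNR2 had 3490 and 324, and 1760 and 41.3 in CAL33. The percentiles of the 3 differed by 29.7, −57.9 and −2.69 points, and MT-RNR2 stood near the top of both lists. All 6 sites were listed in all 4 library pairs, at folds that differed between them.

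The strongest gained peaks were mostly sites that another list also held. SLC39A14, a zinc and iron transporter, had a 3′ UTR peak with a fold of 187 and a log10 p-value of −6010 with rapamycin, and the site was listed in CAL33 with folds of 8.84 in control and 26.2 in treated cells. SEC62, part of the protein translocation machinery of the endoplasmic reticulum, had a CDS peak at chr3:169992630-169993168 with 88.8, and 33.8 and 45.6 in CAL33. SOX9, a transcription factor of progenitor cells, had a 3′ UTR peak at chr17:72124453-72124781 with 69.3, and 17.0 in CAL33 control cells. CCN1, a secreted matricellular protein listed as CYR61, had 4.13 in its 3′ UTR and 7.30 in CAL33 control cells.

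Only 2 of the 6 strongest gained sites were listed in no other library pair. They were the CDS of MT-ND6, a mitochondrially encoded subunit of complex I, with a fold of 14.6, and a second MALAT1 site at chr11:65498995-65499263 with 3.85. MALAT1 therefore held both a kept and a gained peak.

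The strongest lost peaks showed the same mixture. CTBP2, a transcriptional corepressor, had a 3′ UTR peak at chr10:124989295-124989685 with a fold of 18.2 and a log10 p-value of −1260 in control cells, and 75.2 without and 35.6 with rapamycin in CAL33. CDK13, a kinase of transcription and RNA processing, had a CDS peak at chr7:40094560-40095158 with 646, and 160 and 114 in CAL33. RANBP2, a nucleoporin, had 89.4 in its CDS, and 21.0 and 12.9 in CAL33. All 3 were thus listed in every library pair but that of HSC3 with rapamycin.

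SMG5, a factor of nonsense-mediated decay, had a CDS fold of 23.7 and was otherwise listed at 2.76 in CAL33 control cells. FADD, the adaptor of death receptors, had an 803 bp peak in its 3′ UTR (chr11:70206173-70206975) with a fold of 80 and a log10 p-value of −811, and PALM2AKAP2 one with 62.1. Neither was listed in CAL33 or in HSC3 with rapamycin.

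The rank of fold enrichment was only loosely kept. Fold depends on the scaling of each library pair, so each kept peak was placed at its percentile within its own list and the control percentile was subtracted from the rapamycin percentile. Across the 1055 pairs the Spearman correlation of the percentiles was 0.23, and the difference had a median of 0.00222 points and an SD of 37.2 points. In 271 pairs (25.7%) the percentile was higher with rapamycin by at least 25 points, and in 271 (25.7%) lower by at least 25 points. Since ranks are centred alike in both lists, the balance of the 2 directions is largely set by the ranking.

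The correlation was higher among strong peaks. Among the 254 pairs in the strongest 25% of both lists by p-value the correlation was 0.57. Among the 475 pairs with no repeated value it was 0.36, against 0.07 over the 312 pairs with 1 repeated value and 0.06 over the 268 with 2. CDS and 3′ UTR pairs gave 0.24 (459 pairs) and 0.21 (330 pairs). For comparison, CAL33 rapamycin against control gave 0.23 (846 pairs), and HSC3 against CAL33 gave 0.29 without (956 pairs) and 0.19 with rapamycin (841 pairs). The points of a comparison all come from the same 2 library pairs, and each list enters 2 of the comparisons.

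**Figure D3:**
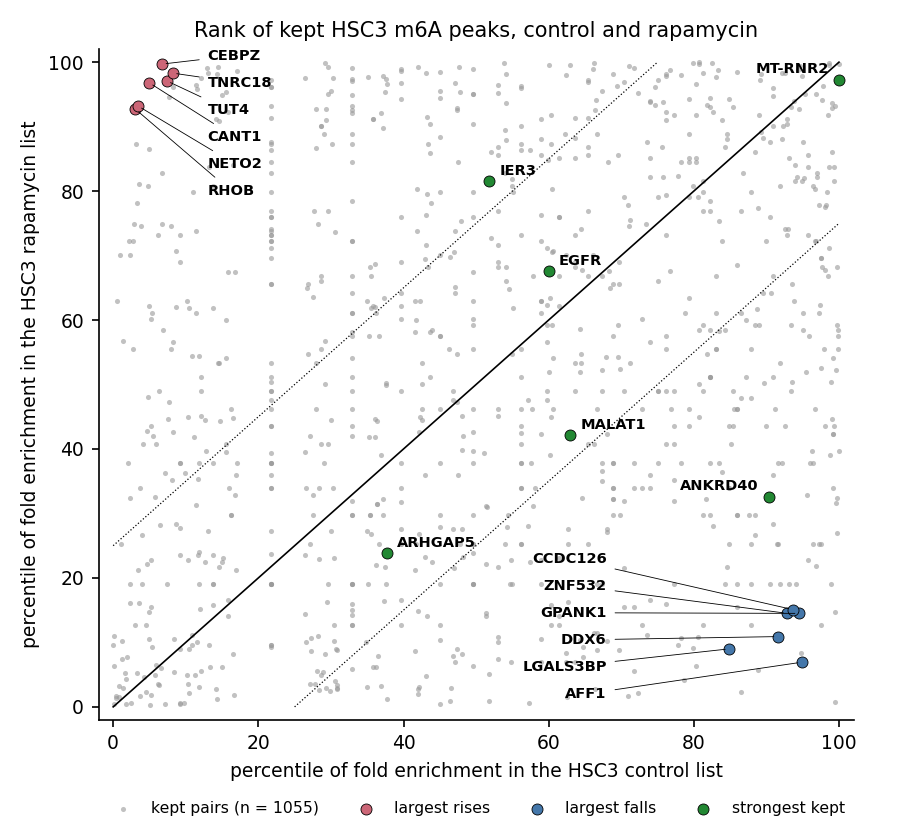
Percentile of fold enrichment in the control list (x axis) against that in the rapamycin list (y axis) for the 1055 best-matched kept pairs, with dotted lines 25 points either side of equality and the named genes marked. The points fill most of the square (Spearman 0.23), with 271 pairs above the upper line and 271 below the lower line, and the vertical and horizontal stripes are peaks that share a repeated value.

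The largest rank differences were taken among pairs that shared at least 50% of the shorter peak with a false discovery rate of at most 0.05 in both lists. Since they were chosen for their difference, they are a description. Those higher with rapamycin went from near the bottom of the control list to near the top of the rapamycin list. CEBPZ, a nucleolar transcription factor, had a CDS fold of 4.63 in control and 949 in rapamycin cells (chr2:37227576-37227756 in control, 93.0 points). CANT1, a calcium-activated nucleotidase of the Golgi, had 3.74 and 306 in its 3′ UTR (91.9 points), and 62.8 in CAL33 control cells.

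RHOB, a small GTPase of endosomes and the cytoskeleton, had an exon fold of 2.97 and 179 (89.6 points). TNRC18, a chromatin protein, had a CDS fold of 5.22 and 407 (90.1 points), and NETO2, an auxiliary subunit of glutamate receptors, 3.12 and 187 (89.8 points). TUT4, a uridylyltransferase that tails RNA and is listed as ZCCHC11, had 4.88 and 316 (89.7 points), and 3.43 in CAL33 rapamycin cells, near the HSC3 control value. None of the 6 was listed in both CAL33 lists.

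Those lower with rapamycin stood near the top of the control list. AFF1, a scaffold of the super elongation complex, had a CDS fold of 348 in control and 5.47 in rapamycin cells (chr4:87114872-87115232, −88.0 points), but 328 and 710 in CAL33. GPANK1 had 331 and 8.89 (−80.0 points), but 29.8 and 170 in CAL33. DDX6, an RNA helicase of processing bodies, had a 3′ UTR fold of 252 and 7.52 (−80.7 points), and 108 in CAL33 control cells. In AFF1 and GPANK1 the CAL33 values lay in the other direction.

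The zinc finger gene ZNF532 had 275 and 8.89 in its CDS (−78.3 points), with 145 in CAL33 control cells, and CCDC126 292 and 9.30 (−78.5 points). Both had repeated values in both lists, and the other named pairs had none. LGALS3BP, a secreted galectin-binding protein, had 168 and 6.60 (−75.9 points), and 3.80 in CAL33 control cells. Ranked by p-value in place of fold, LGALS3BP differed by −5.25 points and GPANK1 by −22.4 points, while each of the other 10 differed in the same direction as by fold and by between 43.6 and 80 points.

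**Figure D4:**
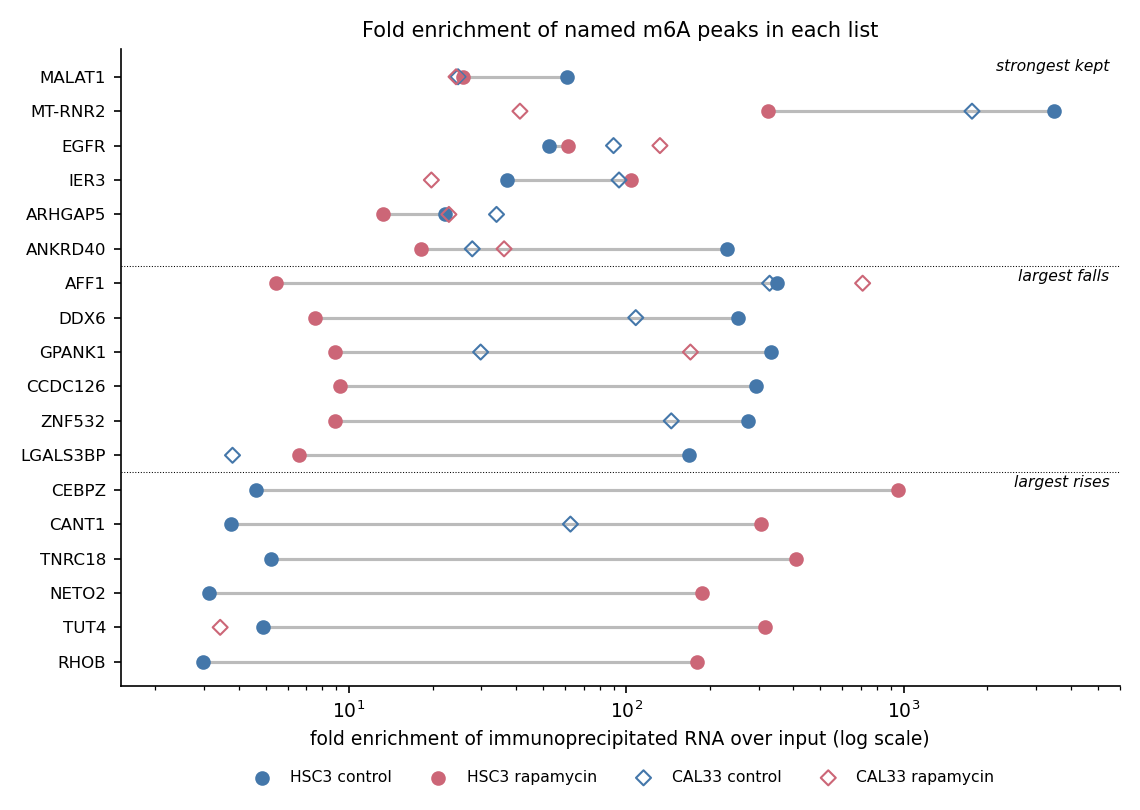
Fold enrichment over input (x axis, log scale) in each of the 4 lists for the 18 named kept pairs, with no replicate and hence no error bar. The 6 strongest pairs have a value in every list, while the pairs chosen for their rank difference range from 2.97 to 949 in HSC3 and often lack a CAL33 value.

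At the level of genes, 4550 genes carried an HSC3 peak. Of these, 948 (20.8%) had at least 1 kept peak, 491 (10.8%) had peaks in both lists at different places (switched), 1540 (33.8%) had peaks with rapamycin only and 1571 (34.5%) in control only. Of the gained peaks, 1044 (36.9%) lay on genes that carried a control peak elsewhere, at a median distance of 778 bp, and 1009 lost peaks (35.8%) on genes with a rapamycin peak elsewhere, at 748 bp.

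A few long transcripts held many peaks. PLEC, the cytolinker plectin, had 5 kept pairs, 6 gained and 3 lost peaks. PHF3, a regulator of transcription elongation, had 4 peaks in each list, all kept, and SHROOM3, an actin-binding protein of epithelial shape, had 4 kept pairs and 1 lost peak. AHNAK2 had 8 gained and 4 lost peaks and no kept pair, and SAMD9, an antiviral factor, 6 gained and 1 lost. MUC2, a gel-forming mucin, had 7 lost peaks and KHNYN 5, and neither had a rapamycin peak. FAT1, a giant cadherin, had 2 kept pairs and 5 lost peaks.

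Gene lists were compared with the 15826 genes with enough RNA-seq reads to be tested, of which 5.68% had a kept peak, 3.04% a switched, 8.76% a rapamycin-only and 8.88% a control-only peak, and 26.4% any HSC3 peak. The lists were chosen with earlier results known, so shares are a description and no test was made. The transcripts of the m6A machinery itself carried many peaks, on 18 of 27 genes (66.7%), of which 6 were kept, 4 switched, 4 rapamycin-only and 4 control-only.

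Among the writers, RBM15, which recruits the complex to RNA, had 3 kept CDS pairs, the strongest at chr1:110340751-110341200 with folds of 80.2 and 38.8 and log10 p-values of −770 and −652. WTAP, the adaptor of METTL3 and METTL14, had a kept 5′ UTR peak with 289 in control and 46.5 in rapamycin cells. ZC3H13 had 7.21 and 39.6, and CBLL1 20.3 and 3.52, both in the CDS. The catalytic pair had control peaks only. METTL14 had a CDS peak (chr4:118710130-118710310) with 22.4 and a log10 p-value of −3.32, a repeated value, and METTL3 an exon peak with 10.1. VIRMA, PRRC2A and RBM15B had peaks at different places in the 2 lists.

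Among erasers and readers, ALKBH5 had a CDS peak in control cells only, with a fold of 6.54. YTHDF2, the reader linked to mRNA decay, had a kept CDS peak with 19.2 and 17.2. YTHDC1 had a control peak only, YTHDF3 2 gained CDS peaks, and YTHDF1 a CDS peak in control and a 3′ UTR peak in rapamycin cells. IGF2BP2, a reader that stabilises mRNA, had a gained 3′ UTR peak with 242 and a log10 p-value of −121 that was listed in both CAL33 lists. With peaks of repeated values left out, the rapamycin-only genes of this list went from 4 to 5 and the control-only genes from 4 to 2, against 4.01% and 4.53% of all genes. PCIF1, which methylates the cap-adjacent adenosine, had a kept peak at its stop codon with 179 and 10.9, both repeated values.

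Transcripts of the autophagy machinery carried a peak in 30 of 58 genes (51.7%). Of these 6 were kept, 1 switched, 16 (27.6% of the list) rapamycin-only and 7 control-only. Over the whole list of 60, 27 of 33 rapamycin peaks were gained and 14 of 20 control peaks lost. Over all HSC3 peaks these shares were 71.6% and 71.8%. The difference between rapamycin-only and control-only genes was smaller among stronger peaks. In the stronger 50% of each list 9 genes were rapamycin-only and 7 control-only, against 5.82% and 5.93% of all genes. With repeated values left out, 5 genes were rapamycin-only and 4 control-only, against 4.01% and 4.53% of all genes.

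Gained peaks lay at several steps of the pathway. In the ULK1 complex, which starts autophagosome formation, ULK1 had 2 gained 3′ UTR peaks (folds of 51.9 and 27.3), ATG13 a 3′ UTR peak (3.42), ATG101 a CDS peak (20.5) and RB1CC1 a pair of CDS peaks (8.08 and 8.62). In the complex that makes phosphatidylinositol 3-phosphate, NRBF2 had a gained CDS peak at chr10:63153725-63153992 with 33.4 and a log10 p-value of −176, listed in both CAL33 lists, and ATG14 a 3′ UTR peak of 21.9. Among proteins of the growing membrane and its ubiquitin-like conjugates, WIPI2 (95.7), WDR45B (50.1), ATG2B (156), ATG12 (11.6) and MAP1LC3B (18.4, log10 p-value −22.9) had gained 3′ UTR peaks, as did the scaffold WDFY3 (126). MAP1LC3B encodes LC3B, the protein whose lipidated form marks autophagosomes. The 5 genes with a gained peak of unrepeated value were RB1CC1, NRBF2, MAP1LC3B, WDR45B and ATG13.

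Lost peaks lay on other autophagy genes. PIK3R4, the regulatory subunit of the phosphatidylinositol 3-kinase VPS34, had a CDS peak at chr3:130744522-130744761 with a fold of 60.1 and a log10 p-value of −175 in control cells, listed in both CAL33 lists. ATG9A, the lipid scramblase of autophagic vesicles, had 22.4, the mitophagy receptor BNIP3 191, EPG5 409 and TECPR2 381, all repeated values. Among kept sites, the protease ATG4A had 11.4 in control and 342 in rapamycin cells in its 3′ UTR, and the kinase PINK1 9.90 and 28.6. The PINK1 peaks, at chr1:20650616-20650884 in control and chr1:20650884-20651153 in rapamycin cells, were adjacent and only just met the 1 bp rule. UVRAG had 524 and 62.9, and ATG4B 314 and 107. The kept autophagy sites thus lay on both sides.

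Lysosomal genes, which TFEB drives, had few peaks. Of 46, none had a kept or a rapamycin-only peak, 4 had control peaks only and CLCN7 was switched. The 4 were the proteases CTSB (11.7) and TPP1 (63.1), the cholesterol exporter NPC1 (56.1) and the ion channel TPCN1 (213), all in the 3′ UTR. With 5 of 46 genes (10.9%) carrying any peak, this list lay below the 26.4% of all genes.

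In the mTOR and nutrient-sensing list, 24 of 63 genes (38.1%) had a peak, 7 kept, 3 switched, 11 rapamycin-only (17.5%) and 3 control-only (4.76%). Over all 66 genes of the list, RNA-seq count or not, 22 of 31 rapamycin peaks were gained and 11 of 20 control peaks lost. Over all HSC3 peaks these shares were 71.6% and 71.8%. Of the lost peaks, 1 lay on PIK3R2, which was not tested. In the stronger 50% of each list the counts were 7 rapamycin-only and 5 control-only, against 5.82% and 5.93% of all genes. With repeated values left out they turned to 2 and 4, against 4.01% and 4.53%. MTOR itself, the target of rapamycin, had a 3′ UTR peak in control cells only (chr1:11107105-11107315), with a fold of 68.7 and a log10 p-value of −43.5. Its partners RPTOR (13.7), RICTOR (11.1) and MLST8 (13) had gained peaks, as did the upstream kinases PDPK1 (309) and AKT1 (5.03) and the inhibitor TSC1 (16.4). Its substrate kinase RPS6KB1 had a 3′ UTR peak in control cells only, with 82.2.

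Kept sites of this list were found on regulators of mTORC1. DDIT4, an inhibitor induced by stress, had a CDS peak at chr10:72274814-72275052 with 82.2 and 37.3 and log10 p-values of −78.9 and −550. FLCN had 118 and 170, RRAGA 16.8 and 172 and FNIP1 2.92 and 82.0, all members of the lysosomal branch of amino acid sensing. The insulin receptor substrates IRS1 and IRS2 each had 2 kept pairs. In 1 CDS pair of each the fold was lower with rapamycin (IRS1 157 and 73.8, IRS2 191 and 47.4). The log10 p-values of these pairs were −26.4 and −16.1 in IRS1 and −32.3 and −58.6 in IRS2. The strongest IRS2 peak was another one, a kept 3′ UTR peak with 25.4 in control cells. The receptor INSR had 16.8 and 49.2. RRAGC had a control peak of 527 and, beside it, rapamycin peaks of 161 and 21.0 in its 3′ UTR, which did not overlap.

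Translation initiation genes had peaks in 9 of 54 cases (16.7%). EIF4G1, the scaffold of the cap-binding complex and a gene the study followed, had 2 kept pairs. Their folds were 4.32 and 3.79 in the CDS and 3.68 and 32.5 in the 3′ UTR. The CDS peaks, at chr3:184321584-184321973 in control and chr3:184321405-184321614 in rapamycin cells, overlapped only at their ends. The CDS folds in HSC3 therefore come from largely different stretches. Both CAL33 peaks matched to this site started at 184321614, the last base of the HSC3 rapamycin peak. EIF3A had a kept CDS pair of 1.28 and 6.84. The kinases of eIF2 EIF2AK2 (109) and EIF2AK3 (30.1) had gained peaks and EIF2AK1 (101) a lost peak. LARP1, which represses ribosomal protein mRNAs when mTOR is off, had a CDS peak of 21.1 in control and a 3′ UTR peak of 20.5 in rapamycin cells.

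Regulators of transcription carried a peak more often than genes overall. Of 104 signalling transcription factors, 68 (65.4%) had a peak, 21 kept, 8 switched, 23 rapamycin-only and 16 control-only. KLF13 had 3150 in control and 23.9 in rapamycin cells, while the AP-1 members JUN (460 and 231) and FOSL2 (112 and 96.7) lay closer together, all in the 3′ UTR. MYC had 23.8 and 99.5. SOX9, KLF6 (143), TGIF2 (364) and ETS2 (342) had gained peaks, and MAFG (14.3), FOSL1 (7.07), NFE2L2 (207) and SMAD3 (264) lost ones. Of 105 chromatin regulators, 62 (59.0%) had a peak, 18 kept, 14 switched, 17 rapamycin-only and 13 control-only. The methyltransferase KMT2B had 121 and 108, the acetyltransferase KAT6A 14.6 and 1950, and the remodeller subunit ARID1A 908 and 28.3.

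Of 461 ZNF genes, 211 (45.8%) had a peak, 38 kept, 31 switched, 70 rapamycin-only and 72 control-only. The kept folds of the 3 best were close, with 78.3 and 56.6 for ZNF146, 85.5 and 90.2 for ZNF131 and 87.2 and 84.6 for ZNF518A. By peaks, 150 of 195 rapamycin peaks of the ZNF list were gained and 160 of 205 control peaks lost. The chromatin list had 57 of 78 gained and 49 of 72 lost, and the transcription factor list 57 of 86 and 39 of 68. Over all HSC3 peaks these shares were 71.6% and 71.8%.

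Squamous and adhesion genes had the highest kept share of peak-bearing genes, 43.2%, against 21.5% over all genes. Of 80, 16 were kept, 3 switched, 11 rapamycin-only and 7 control-only. The integrin subunits ITGA3 (25.7 and 71.9) and ITGA5 (22.4 and 51.0) had higher and the matrix protein THBS1 (28 and 7.18) and the tight junction protein CLDN4 (32.8 and 24.3) lower folds with rapamycin. CD44 (17.1) and the desmosomal cadherin DSG3 (213) had gained peaks, and the desmosomal DSC3 (286), DSG2 (15.8) and PPL (95.3) lost ones. Of 57 receptor kinase genes, 10 (17.5%) were kept, 4 (7.02%) switched, 9 (15.8%) rapamycin-only and 5 (8.77%) control-only. Besides EGFR, its ligand HBEGF had 1450 and 46.5, SPRED1 (233) and EPHA4 (435) had gained peaks, and GRB2 (25.2) a lost one.

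Of 83 Hippo, Wnt and Notch genes, 8 (9.64%) were kept, 6 (7.23%) switched, 14 (16.9%) rapamycin-only and 13 (15.7%) control-only. Over all tested genes these shares were 5.68%, 3.04%, 8.76% and 8.88%. NOTCH2 had 42.3 and 55.4 and the Wnt receptor FZD7 264 and 413, while CCN1 and RBPJ (410) had gained and CCN2 (213) and NOTCH1 (191) lost peaks. Of 41 cell death genes, 7 were kept, 2 switched, 5 rapamycin-only and 6 control-only. The p53 antagonists MDM2 (84.1 and 309) and MDM4 (34.8 and 23.3) and the BH3 protein PMAIP1 (172 and 24.6) had kept peaks. BCL2L1 (17.6), BBC3 (41.8) and BOK (32.5) had gained and FADD and CFLAR (295) lost peaks. Of 88 cell cycle genes, 19 (21.6%) had a peak, 5 (5.68%) kept, 1 (1.14%) switched, 5 (5.68%) rapamycin-only and 8 (9.09%) control-only, near the shares of all genes. Among them were MKI67 with a kept CDS pair of 2.01 and 7.10 and MCM3 with a lost 3′ UTR peak of 20.

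**Figure D5:**
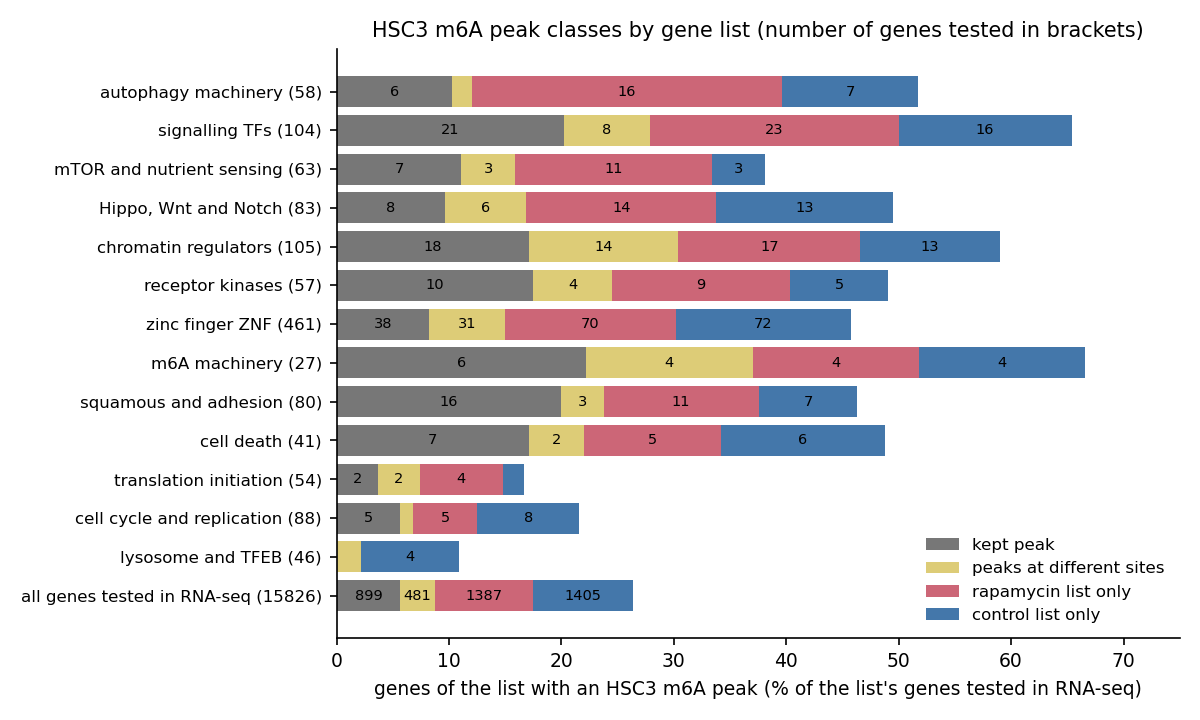
Share of the tested genes of each list (x axis, percent) whose HSC3 peaks were kept, switched, rapamycin-only or control-only, with counts of 2 or more written in the bars and all 15826 tested genes as the background. The autophagy list has the widest rapamycin-only section, 16 of 58 genes, the lysosome list has none, and all genes have 8.76%.

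mRNA levels of these genes came from 4 RNA-seq libraries of 18492273 to 23763098 counts, 2 with rapamycin at 100 nM and 2 controls. The labels place both rapamycin libraries in HSC3 and both controls in CAL33, so treatment and cell line cannot be told apart as labelled. The epithelial markers EPCAM and CDH1 were present in all 4 libraries (153 to 272 and 179 to 334 CPM) and the leukocyte marker PTPRC had 0 counts in each. The squamous markers differed by replicate number. KRT17 was at 5.19 and 4.9 CPM in rapamycin and control replicate 1 and at 2060 and 1340 in replicate 2. KRT5, KRT6A and TP63 were also lower in replicate 1 of each treatment, and KRT14 had 0 CPM there. FN1 was at 15200 and 8210 CPM in rapamycin and control replicate 1 and at 41.4 and 33.8 in replicate 2. Libraries with the same number, not the same labelled line, were thus alike. In the MeRIP titles number 1 stood for HSC3 and number 2 for CAL33, while the RNA-seq labels give the line by treatment. Nothing says that the libraries came from separate cultures, and p-values measure the spread between these samples only.

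None of 15826 genes passed an adjusted p of 0.05 by the quasi-likelihood test of edgeR, adjusted by Benjamini-Hochberg (0% called, 446 genes at an unadjusted p under 0.05), and DESeq2 called 42 (0.265%). With the replicate number as a block edgeR called 1290 (8.15%), though the labels do not establish that the numbers pair the libraries. The median log2 fold change was −0.14 for the 899 tested genes with a kept peak, −0.07 for switched, 0.01 for rapamycin-only and −0.07 for control-only genes, 0.10 for genes with no HSC3 peak and 0.06 for all genes. Genes with a kept peak thus lay lowest, 0.20 below all genes, and without rapamycin replicate 2 the gap was −0.07. Kept peaks were also more frequent on genes with more reads. From the lowest to the highest of 4 equal groups of peaks by the mRNA reads of their gene, the kept share went from 18.1% (15.7% to 20.7%) to 36.2% (33.2% to 39.4%) in the rapamycin list and from 18.2% to 37.3% in the control list. The part of read number in the other kept shares was not tested.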

How the data were processed

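MeRIP-seq of HSC3 and CAL33 cells (1 immunoprecipitated library and 1 input library per line and treatment) and RNA-seq of 4 libraries were analysed from the deposited files. For each MeRIP pair the authors deposited 1 peak list on hg38, holding each peak's fold enrichment (the ratio of signal in immunoprecipitated over input RNA), a p-value column, and log10 p-value and log10 false discovery rate columns, treated here as a score because they reach far below −100. For RNA-seq the authors deposited raw counts per Ensembl gene. The submitters' notes name cutadapt 2.5, HISAT2 2.1.0, featureCounts 1.6.3 and HOMER 4.10.4 without roles, and the peak caller and its settings are not given in the sources used here. Peaks were called on each pair separately, so nothing was pooled, and how the pairs were scaled to each other is unknown.

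Peaks were intersected over their exonic blocks (at least 1 bp, same strand, positions counted from 1) in Python 3.11.15 with pandas 2.3.3, numpy 2.4.6 and scipy 1.17.1. Mutually best pairs were those in which each peak shared most bases with the other. Percentiles are mid-ranks within a list, and a difference of 25 points was used as a fixed size. A value was counted as repeated when fold and log10 p-value both equalled those of another peak of the list. Gene symbols were matched for 7841 of 7882 HSC3 peaks (99.5%), and sequences came from RefSeq promoter windows. Figures were drawn with matplotlib 3.10.9. Counts were tested in R 4.3.3 with edgeR 4.0.16 (filterByExpr, TMM, quasi-likelihood test without a block, Benjamini-Hochberg adjustment), with DESeq2 1.42.0 as an alternative. No row lacked a gene. The overlap rule and the count test were first tested on simulated data.

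Genes were named by rule. The rule took the 6 largest rank differences each way among pairs sharing at least 50% of the shorter peak with a false discovery rate of 0.05 or less in both lists, the 6 strongest kept, gained and lost sites by p-value, the 3 genes with most kept, gained or lost peaks, EIF4G1, all members of the m6A, autophagy, mTOR and translation lists, and up to 4 per class of the other lists. The peaks, the gene lists and the rule were chosen with earlier results of these data known. Alternatives were other overlaps, thresholds, ranks and list members, other fits of the counts, and each RNA-seq library left out.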

Additional observations from a re-analysis of the deposited data

Results flagged for a closer look

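In 6 of the named kept pairs the percentile of fold enrichment, rapamycin minus control, lay on opposite sides of 0 in HSC3 and CAL33. With 1 library pair per line and treatment the difference between the lines was not tested. The AFF1 CDS peak differed by −88.0 points in HSC3 and 5.80 in CAL33. The GPANK1 CDS peak differed by −80.0 points in HSC3 and 50.6 in CAL33. The ANKRD40 3′ UTR peak differed by −57.9 points in HSC3 and 11.3 in CAL33, and the MALAT1 exon peak by −20.8 and 4.90. IER3 went the other way in its 3′ UTR, with 29.7 points in HSC3 and −33.1 in CAL33. The CDS peak of EIF4G1 differed by −2.70 points in HSC3 and 33.4 in CAL33. Its control and rapamycin peaks in HSC3 overlapped only at their ends, so −2.70 compares largely different stretches.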

How the results depend on the processing

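The shares of kept peaks moved with the rule for overlap. In the rapamycin and control lists they were 23.8% and 23.7% when 50% of the shorter peak had to be shared, 18.0% and 18.1% when 50% of both had to be, 26% and 25.8% within the strongest 50% of each list, 36.2% and 36.7% for the strongest 50% against all peaks of the other list, and 48.1% and 47.7% when genes replaced peaks. With a fold of at least 4 the rapamycin share was 26.8%. With repeated values left out the kept shares were 33.6% and 31.5%, and in the strongest 50% of each list a CAL33 counterpart was found for 69.0% of kept, 30.6% of gained and 30.3% of lost peaks. All settings that leave out repeated values, and the strongest 50% for CAL33 counterparts and gene lists, were chosen after seeing the data. With 50% of the shorter peak shared the CAL33 values were 56.8%, 22.0% and 20.1%, and 27.4% of lost peaks with a false discovery rate of at most 0.05 had one. The rank correlation of fold was 0.350 by p-value, 0.290 for pairs with a false discovery rate of at most 0.05 and 0.360 without repeated values. Pairs higher by at least 25 points were 22.6% by p-value, and pairs lower by at least 25 points 20.6% without repeated values. Among named pairs, by p-value, GPANK1 differed by −22.4 points and LGALS3BP by −5.25. Of the gene lists, autophagy genes with rapamycin-only peaks were 9 in the strongest 50% and 5 without repeated values, with 4 control-only in the latter. In the mTOR list the rapamycin-only genes were 7 and 2 under the same alternatives, with 5 control-only in the strongest 50%, and the m6A list had 2 control-only genes without repeated values. The causes were not tested. In all, 106 of the 143 values recomputed stayed within the spread or factor set for them. Most of the 143 are shares or counts, which have no sign to change. The rank differences of the named pairs kept their sign. So did the mRNA gaps to all genes, except that of rapamycin-only genes, which went from −0.05 to 0.00 without rapamycin replicate 2. The order of the mTOR counts turned as given in the report.

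For the RNA-seq counts, the same-numbered libraries deviated together (r = 0.9 across 15826 genes, which are not independent replicates). The RNA-seq labels do not say that a number marks a shared culture or line. In the MeRIP titles number 1 stood for HSC3 and number 2 for CAL33. With the number as a replicate block edgeR called 1290 genes (736 higher, 554 lower), without it 0. DESeq2 called 42. Leaving out 1 library left an arm with 1 sample, assumed to vary like the other arm, and each such fit called 0 genes, with between 60 and 387 genes at an unadjusted p under 0.05. The median of kept genes minus that of all genes ranged from −0.23 to −0.07 on the log2 scale over these fits, the latter without rapamycin replicate 2. The class medians themselves shifted with that of all genes, from 0.06 to −0.09 for all genes and from 0.01 to −0.18 for rapamycin-only genes without rapamycin replicate 1. Upper-quartile scaling set the median of all genes at 0.13 and that of kept genes at −0.06. The depth of the MeRIP libraries is unknown, so what it limits cannot be given.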
